A study of Mus musculus with 27 samples.

Results

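Splenic CD4+ T cells were set against myeloid cells of the inflamed colon, with 2 arrays of T cells and 25 arrays of colon cells chosen by the cell type and tissue in the sample labels, 27 arrays in all. The T cell arrays were 1 WT array (array 34) and 1 Mbd2-/- array (array 35, labelled Mbd2KO), taken from spleen 6 weeks after T cells were transferred to induce colitis. The colon cells came from mice given 2% dextran sodium sulphate (DSS), which injures the epithelium, and comprised monocytes (5 WT and 5 Mbd2-/- arrays), macrophages (5 WT and 5 Mbd2-/- arrays) and the CD11b- dendritic cells labelled CD11bnegDC, here called cDC1s (2 WT and 3 Mbd2-/- arrays). The T cells were one group, since 1 array per genotype allows no test of genotype. Whether their genotype was that of the transferred cells or of the host, and how they were sorted, is not given in the sources used here. The study's methods give 1 age range of adult mice for the whole study and none per group, sorted the colon cells by flow cytometry, and pooled mice for some replicates. Those methods freed the colon cells by enzymatic digestion and do not describe how the T cells were prepared. Cell type, organ and colitis model all changed together between the T cells and the colon cells, and cell preparation may have as well. Their parts in any difference cannot be told apart.

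Levels are given as normalised log2 intensity, so that a difference of 1 is a doubling, and differences are T cells minus colon. For each gene the T cell mean was compared by limma with the mean of the 3 colon cell types, each type counting once. A gene was called where the adjusted p was under 0.05, the difference was at least 1 and both T cell arrays lay at least 1 from the colon mean on the same side. The filter on dim probes left 14299 genes, of which 1063 passed it through the T cell arrays alone and 3097 through the colon arrays alone. A gene of either kind had little room to differ in the other direction, so the counts below describe the genes tested and not all genes of a list. The study's methods call the replicates of sorted cells biological, some of them pools of mice, but do not describe the T cell samples. No label ties an array to an animal or an experiment, so p-values measure the spread between these samples. That spread came mostly from the more numerous colon arrays, and the fit assumed that the T cell arrays vary like the colon arrays. Any genotype difference between the T cell arrays was counted as spread. An array reads RNA per sample, so fewer cells of a type and less RNA per cell cannot be told apart.

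The T cell arrays resembled each other (r = 0.977 over 20044 probes), and their correlations with the colon arrays ran from 0.670 with a macrophage array to 0.804 with a cDC1 array. Macrophage arrays 12 (WT) and 20 (Mbd2-/-) and cDC1 array 23 (WT) stood apart from their own cell types, with mean correlations of 0.946, 0.947 and 0.950 to them, against 0.961 to 0.984 for the other colon arrays. Arrays 20 and 23 were both at least 1 above the mean of the others of their type for 137 of the 1648 genes called higher in T cells (8.31%), against 247 of the 14299 genes tested (1.73%). Without these 3 arrays 1641 genes were called higher and 2276 lower, of which 1601 and 2223 were also called with them. The single probe of Mbd2, the gene deleted in the mutant, had detection p-values of 0.739 on the WT and 0.107 on the Mbd2-/- T cell array and was above background on none of the 25 colon arrays, so that it checked no genotype label.

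The markers listed for CD4 T cells bore out the T cell part of the label. Most of their sum on the T cell arrays came from Cd3d, Cd3e and Lck, at 12.18 to 12.87, and little from Cd4, at 7.60 and 8.30. The sum therefore said little on the CD4 part of the label. Cd3d, Cd3e, Cd4 and Lck were above background on both T cell arrays and summed to an intensity of 17740 on the WT and 18200 on the Mbd2-/- array. They summed to 162 to 359 on the monocyte arrays, 224 to 433 on the macrophage arrays and 282 to 1650 on the cDC1 arrays. Markers of monocytes and macrophages showed the reverse, with 1313 and 947 on the T cell arrays and 22470 to 32910 on the monocyte arrays, and Fcgr1, a monocyte and macrophage Fc receptor, was not above background on either T cell array.

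Other cells were marked on both sides of the comparison. All 8 neutrophil markers were above background on both T cell arrays, where they summed to 24730 (WT) and 5523 (Mbd2-/-), against 2396 to 8662 on monocyte, 1011 to 5903 on macrophage and 658 to 2766 on cDC1 arrays. Erythroid and platelet markers summed to 3161 and 15950 on the T cell arrays and to 391 to 4840 on the colon arrays, with Hba-a1 and Hbb-b1, the haemoglobin genes, the brightest of them in T cells, while the platelet genes Pf4 and Itga2b were not above background on the T cell arrays. Epithelial and stromal markers went the other way. They summed to 216 and 189 on the T cell arrays, where 6 of 8 (Krt8, Krt19, Muc2, Col1a1, Col3a1 and Dcn) were not above background, and to 4907 to 18450 on the colon arrays, where all 8 were above background on every array. B cell and plasma cell markers summed to 160 and 173 on the T cell arrays, with 5 of 6 not above background, and to 196 to 1731 on the colon arrays. CD8 T cell and natural killer cell markers, all 4 above background on both T cell arrays, summed to 884 and 696 there. They summed to 179 to 551 on monocyte, 192 to 392.5 on macrophage and 1252 to 2074 on cDC1 arrays. The part of all these cells in the differences below was not tested.

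**Figure D1:**
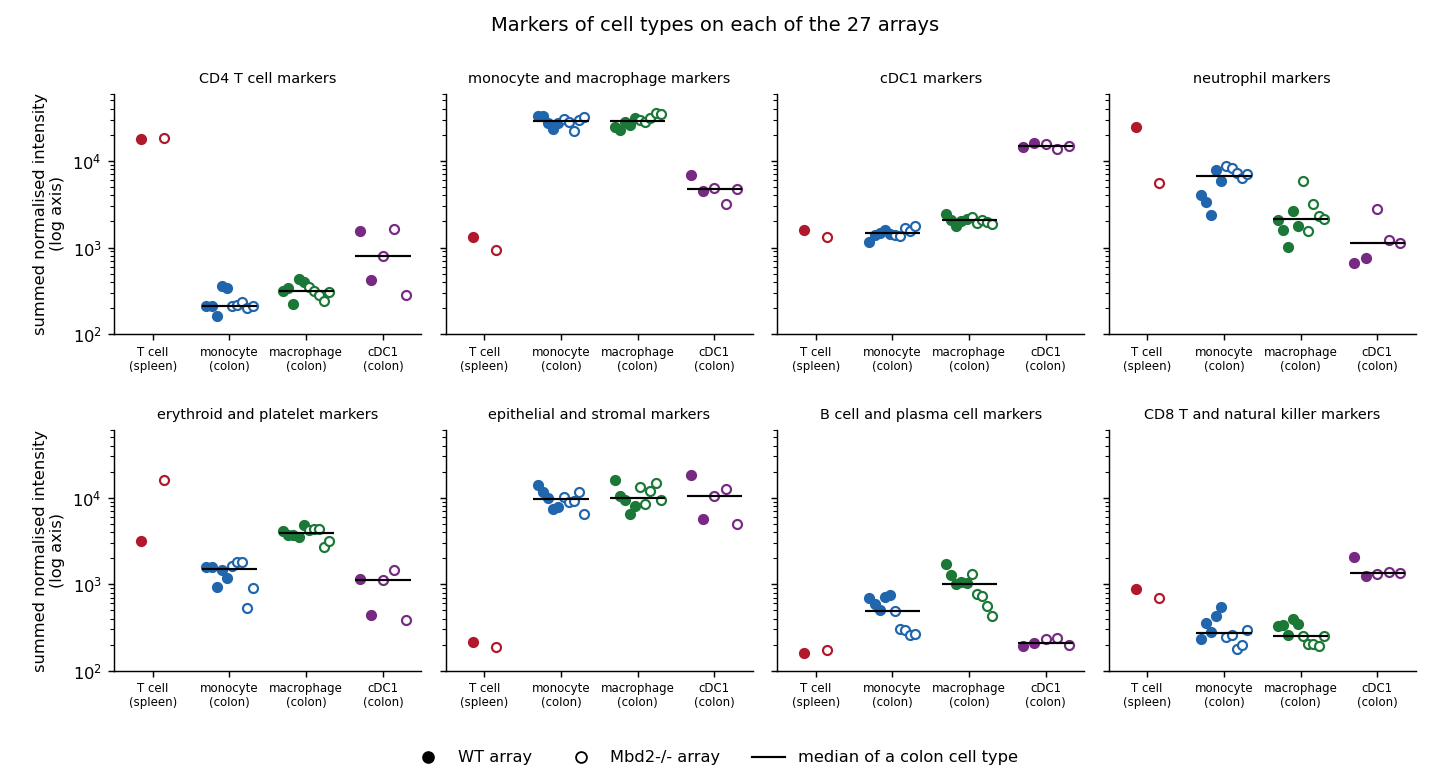
Summed normalised intensity of 8 lists of marker genes (vertical log axis) on each of the 27 arrays, by cell type (horizontal axis), with WT arrays filled, Mbd2-/- arrays open and a line at the median of each colon cell type. The CD4 T cell markers stood at 17740 and 18200 on the T cell arrays and at most at 1650 on a colon array, the neutrophil markers at 24730 on the WT and 5523 on the Mbd2-/- T cell array, and the epithelial and stromal markers at 216 and 189 on the T cell arrays and at least at 4907 on the colon arrays.

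T cells recognise peptide held by MHC molecules through an antigen receptor whose chains cannot signal alone. The CD3 chains and the zeta chain (Cd247) carry the signal inward, where the kinase Lck phosphorylates them, Zap70 docks on them and the adaptors Lat and Lcp2 assemble the enzymes that raise calcium and activate protein kinase C theta. Monocytes, macrophages and dendritic cells use the same logic with other parts: Fc receptors and C-type lectins signal through Fcer1g and Tyrobp, Syk takes the place of Zap70 and Lat2 that of Lat. Several of these pairs are related genes, so they show how the 2 lineages split one signalling scheme.

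The promoters of 4 genes of the T cell scheme and of Fcer1g, the myeloid relative of Cd247, are shown as examples of the 2 signalling schemes compared below. The sequences are RefSeq's, from build GRCm38.p6, and run from 250 bases before to 50 after the start, 5′ to 3′ on the gene's strand. Capitals mark matches, on either strand, to AGGAAG (ETS type), TGTGGT (RUNX type), CTTTGA (TCF and LEF type), TTGCNNAA (C/EBP type) and TGANTCA (AP-1 type), and none of the matches printed overlaps another. The promoter of Cd3d lies at chr9:44981536-44981835 on the plus strand, that of Cd3e at chr9:45009562-45009861 on the minus strand, that of Cd247 at chr1:165788431-165788730 on the plus strand, that of Lat at chr7:126369519-126369818 on the minus strand and that of Fcer1g at chr1:171234300-171234599 on the minus strand.

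Cd3d: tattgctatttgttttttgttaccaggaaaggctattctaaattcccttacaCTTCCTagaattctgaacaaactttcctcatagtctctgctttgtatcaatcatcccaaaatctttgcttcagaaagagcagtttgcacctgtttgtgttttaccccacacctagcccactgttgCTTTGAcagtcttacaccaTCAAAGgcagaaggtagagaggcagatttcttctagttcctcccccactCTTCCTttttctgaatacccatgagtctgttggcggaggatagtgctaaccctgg

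Cd3e: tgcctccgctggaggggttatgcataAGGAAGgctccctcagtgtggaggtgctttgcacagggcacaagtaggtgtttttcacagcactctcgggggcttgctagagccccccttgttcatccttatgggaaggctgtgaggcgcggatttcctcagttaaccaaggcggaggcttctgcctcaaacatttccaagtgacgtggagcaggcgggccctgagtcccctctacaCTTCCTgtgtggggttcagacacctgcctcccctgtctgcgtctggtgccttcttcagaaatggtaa

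Cd247: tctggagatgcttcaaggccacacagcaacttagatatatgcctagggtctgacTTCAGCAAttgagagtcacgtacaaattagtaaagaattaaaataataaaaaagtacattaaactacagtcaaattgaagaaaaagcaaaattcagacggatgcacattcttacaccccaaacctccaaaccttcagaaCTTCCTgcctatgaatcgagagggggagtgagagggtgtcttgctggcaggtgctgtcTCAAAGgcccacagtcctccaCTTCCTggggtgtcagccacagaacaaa

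Lat: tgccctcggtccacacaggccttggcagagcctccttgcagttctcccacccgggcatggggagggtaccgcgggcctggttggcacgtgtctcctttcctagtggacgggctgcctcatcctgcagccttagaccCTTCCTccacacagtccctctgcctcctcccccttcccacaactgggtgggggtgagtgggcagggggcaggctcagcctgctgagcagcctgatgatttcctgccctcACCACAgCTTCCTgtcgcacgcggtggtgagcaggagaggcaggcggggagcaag

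Fcer1g: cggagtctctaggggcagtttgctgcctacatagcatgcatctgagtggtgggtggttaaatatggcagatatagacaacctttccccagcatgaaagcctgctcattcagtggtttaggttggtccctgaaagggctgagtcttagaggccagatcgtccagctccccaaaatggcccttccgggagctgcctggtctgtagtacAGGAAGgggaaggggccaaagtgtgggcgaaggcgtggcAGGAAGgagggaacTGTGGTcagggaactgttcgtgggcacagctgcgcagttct

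Of the 31 tested genes of the T cell receptor complex and its proximal signalling, 21 matched the promoter table, with 25 promoters. AGGAAG was found in 14 of these (56.0%), in 13 of 21 promoters of 17 myeloid adaptor and kinase genes (61.9%) and in 35.4% of all 32851 promoters of 300 bases. TGTGGT was found in 28.0% of the T cell and 14.3% of the myeloid promoters, against 16.8% of all, and CTTTGA in 28.0% and 19.0%, against 16.0%. TTGCNNAA was found in 16.0% of the T cell and 23.8% of the myeloid promoters, against 10.8% of all, and TGANTCA in none of the 25 and in 1 of the 21 (4.76%), against 7.81%. A match is a run of letters and not a measured binding site.

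Across all genes tested, 1648 of 14299 were called higher in T cells (11.5%) and 2247 lower (15.7%), with a median difference of 0.05. Both T cell arrays lay above all 25 colon arrays for 2701 genes (18.9%) and below all of them for 2604 (18.2%). Against single colon cell types, 1897 genes were called higher than in monocytes (13.3%), 1870 than in macrophages (13.1%) and 1465 than in cDC1s (10.2%). The genes called lower numbered 2384 (16.7%), 2426 (17.0%) and 1941 (13.6%) in the same order. In either direction the shares called were 29.9%, 30.0% and 23.8%, and 27.2% against the colon mean. These 3 comparisons share the 2 T cell arrays, and 1035 genes were called higher and 1432 lower in all 3. A further 703 genes met the threshold on p and on the mean difference but failed because 1 T cell array lay within 1 of the colon mean.

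**Figure D2:**
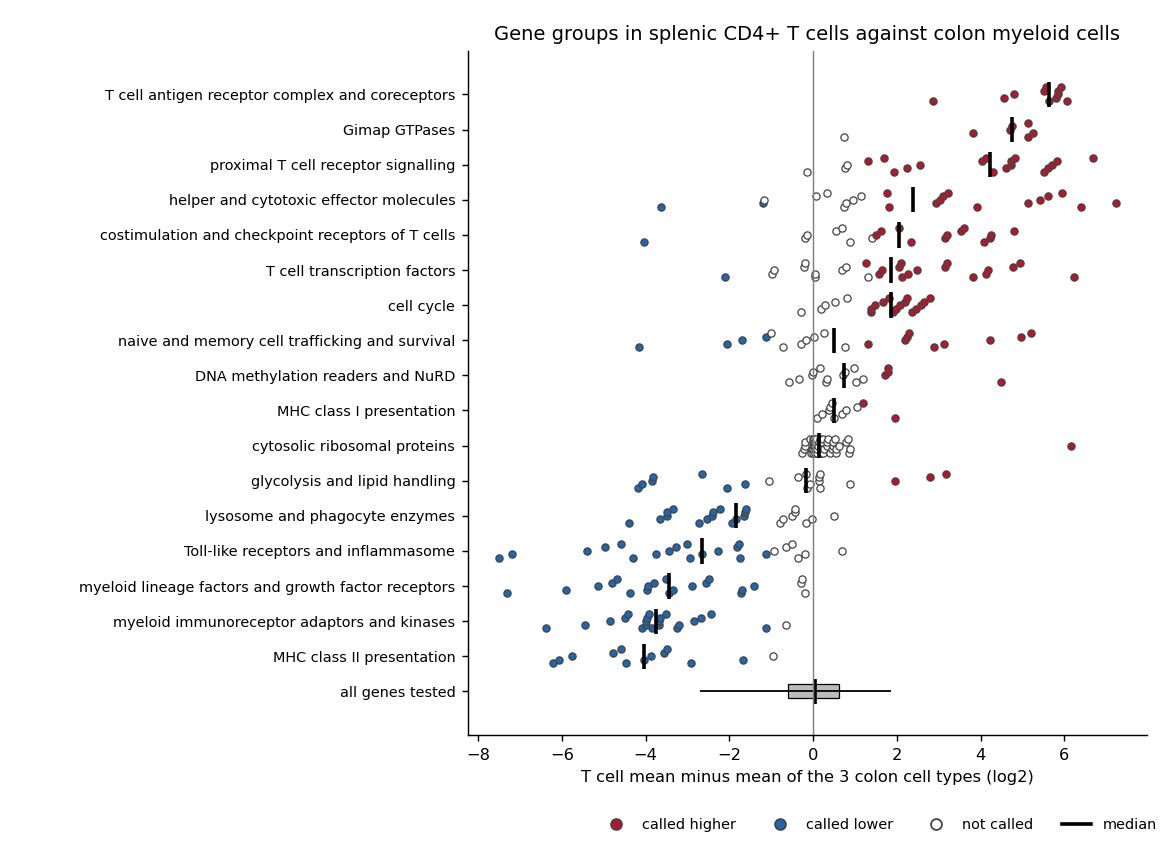
Differences of T cells from the mean of the 3 colon cell types (horizontal axis, log2) for every tested gene of 17 lists, each point 1 gene, filled where it was called, with a line at each list's median. The bottom row shows all 14299 genes tested, as a box from the 25th to the 75th percentile with lines to the 5th and 95th. The T cell receptor list has the highest median, 5.62, and the MHC class II list the lowest, -4.03, against 0.05 for all genes.

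Every tested gene of the receptor complex and its coreceptors was called higher in T cells. The list holds 13 genes, 11 were on the array and were tested, 11 were called higher, and the median difference was 5.62. The same 11 were called against each of the colon cell types. Of these 11 genes, 4 passed the filter through the T cell arrays alone. Cd3e, a CD3 chain without which no antigen receptor reaches the surface, read 12.18 on the WT and 12.25 on the Mbd2-/- T cell array. It read 4.96, 5.34 and 6.17 (lowest, median and highest) on monocyte arrays, 5.24, 5.60 and 6.29 on macrophage arrays, and from 6.11 to 9.12 on the 5 cDC1 arrays. The T cell arrays lay above every colon array, and the difference was 5.92 (SE 0.46, limma adjusted p = 7.72e-11).

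Cd247, the zeta chain with most of the receptor's signalling motifs, read 9.77 and 10.70 on the T cell arrays and was above background on 1 of the 25 colon arrays, cDC1 array 23, at 5.59. Its difference was 5.80 (SE 0.18, limma adjusted p = 1.40e-18), and all 3 of its probes were called. Cd28, the main costimulatory receptor of T cells, read 9.63 and 8.74 against 4.22 to 4.71 on all colon arrays. For Cd6, a CD166 receptor of T cells, the values were 12.92 and 12.89 against 5.19 to 9.47, with a difference of 6.06, the largest of the list. Thy1, a glycolipid-anchored T cell surface protein, read 12.95 and 12.90 against 6.26 to 9.06.

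Cd4 had the smallest difference of the list, 2.87 (SE 0.24, limma adjusted p = 1.98e-10). The coreceptor read 7.60 and 8.30 on the T cell arrays, 4.22 to 4.61 on monocyte arrays, 5.74 to 7.11 on macrophage arrays and 4.32 to 5.43 on cDC1 arrays. The T cell arrays lay above all of these. T cells exceeded monocytes by 3.53, cDC1s by 3.32 and macrophages by 1.75.

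Several of these genes also read higher on cDC1 than on monocyte or macrophage arrays. Cd3d reached 9.52 and Cd3g 10.12 on a cDC1 array, against at most 7.23 and 6.71 on any monocyte or macrophage array. T cells exceeded cDC1s by 4.55 for Cd3d and by 3.96 for Cd3g, and exceeded monocytes by 6.46 and 6.44. Cd28 and Trat1, which binds the receptor chains, stayed at or below 5.15 on the cDC1 arrays.

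**Figure D3:**
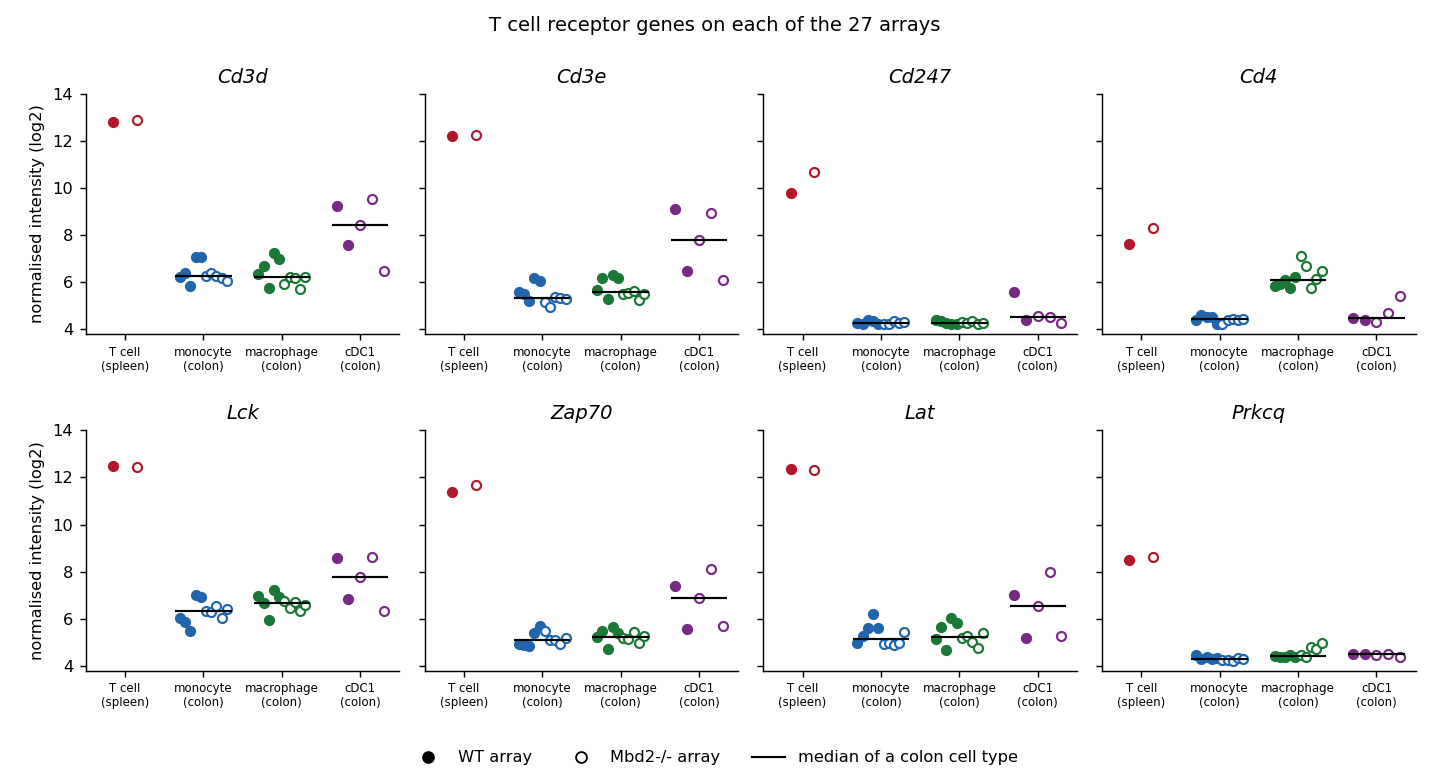
Normalised log2 intensity (vertical axis) of Cd3d, Cd3e, Cd247, Cd4, Lck, Zap70, Lat and Prkcq on each of the 27 arrays, by cell type (horizontal axis), with WT arrays filled, Mbd2-/- arrays open and a line at the median of each colon cell type. For each of the 8 genes both T cell points lie above every colon point, most narrowly for Cd4, with 7.60 and 8.30 against at most 7.11.

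Proximal signalling genes followed the receptor. Of the 23 listed, 22 were on the array and 20 were tested, 5 of them through the T cell arrays alone. Of these, 17 were called higher and none lower, with a median difference of 4.21. Lat, the membrane scaffold of the pathway, read 12.34 and 12.30 on the T cell arrays, 4.88, 5.13 and 6.20 on monocyte arrays, 4.67, 5.24 and 6.05 on macrophage arrays, and 5.18 to 7.99 on cDC1 arrays. The T cell arrays lay above every colon array, and the difference was 6.67 (SE 0.43, limma adjusted p = 2.11e-12), or 102-fold.

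Zap70, the kinase that docks on the phosphorylated receptor, read 11.39 and 11.66 against 4.74 to 8.11 on the colon arrays, a difference of 5.82 (SE 0.38). Prkcq, protein kinase C theta, read 8.51 and 8.62 against 4.23 to 4.99 (difference 4.12, SE 0.11). Neither kinase overlapped between T cells and colon cells.

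Not every gene of the pathway was called. Vav1, a guanine nucleotide exchange factor used by all blood lineages, read 10.54 and 10.55 in T cells and 10.38 to 11.05 in the colon cells (difference -0.15, SE 0.11, limma adjusted p = 0.221). Fyb, an adaptor of integrin activation, differed by 0.77 from the colon mean, and by 2.48 from cDC1s alone. Rhoh differed by 0.80 and was not called. Lcp2, the adaptor that pairs with Lat, read 10.16 and 10.22 against 9.10 to 10.12 on monocyte and macrophage arrays and 7.37 to 8.45 on cDC1 arrays, so that among the single cell types it was called against cDC1s alone. Its call against the colon mean (difference 1.30, SE 0.20) was made by 1 of 3 probes and was lost under median scaling.

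The myeloid counterparts ran the other way. Of 24 listed immunoreceptor adaptors and kinases, 22 were tested and 21 were called lower in T cells, with a median difference of -3.76. Of these, 9 passed the filter through the colon arrays alone. Fcer1g, the adaptor related to Cd247, read 8.74 and 9.43 in T cells, 13.50, 13.72 and 13.86 on monocyte arrays, 13.55, 13.78 and 13.86 on macrophage arrays and 10.65 to 11.14 on cDC1 arrays. It was above background on both T cell arrays and below every colon array, with a difference of -3.67 (SE 0.13, limma adjusted p = 9.02e-18). Tyrobp, its partner adaptor, read 7.36 and 8.13 against 10.83 to 12.49.

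Syk was not above background on either T cell array, at 4.46 and 4.39, and read 6.53 to 8.68 on the colon arrays. It was therefore at least 8.54-fold lower in T cells (limma adjusted p = 1.86e-11). Btk, a kinase of B and myeloid cells, read 5.06 and 4.45 against 8.63 to 9.40, a difference of -4.43 (SE 0.14). Lat2 read 5.62 and 6.90 against 9.39 to 11.14 (difference -4.00, SE 0.18), with 2 of its 3 probes called. Prkcd, protein kinase C delta, was above background in T cells, at 8.21 and 7.96, and 2.85 below the colon mean. In each of the 4 pairs of Cd247 with Fcer1g, Zap70 with Syk, Lat with Lat2 and Prkcq with Prkcd, the first gene was called higher and the second lower, and the T cell arrays lay outside all 25 colon arrays for both. Cd247 and Prkcq passed the filter through the T cell arrays alone and Syk through the colon arrays alone, so that their direction was nearly fixed by the filter.

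**Figure D4:**
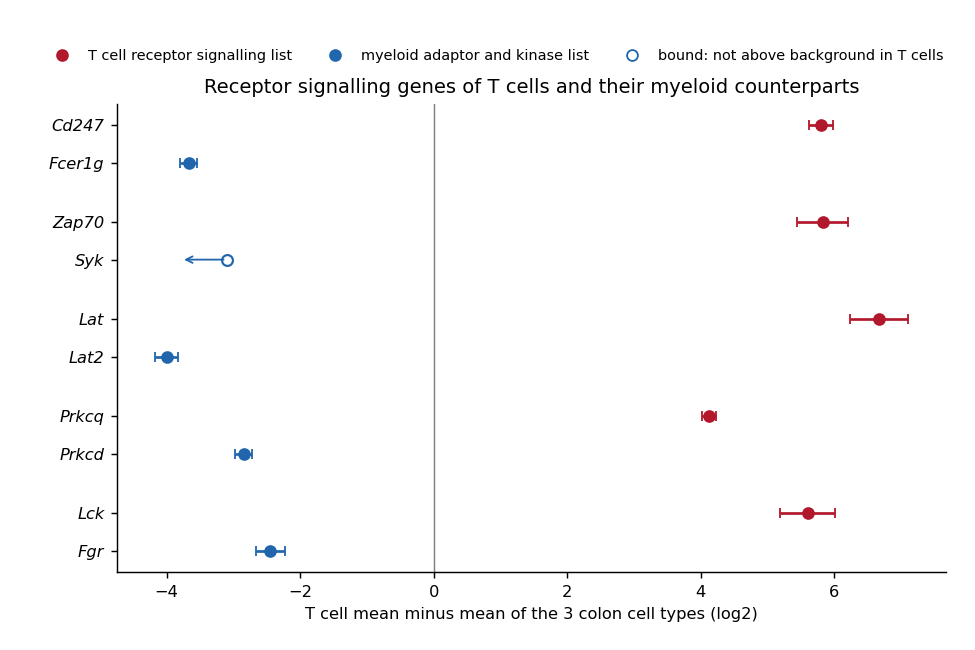
T cell mean minus the mean of the 3 colon cell types (horizontal axis, log2) for pairs of receptor signalling genes, with the standard error from limma. Lck is paired with Fgr, a Src family kinase of myeloid cells. Syk, not above background in T cells, is drawn as an open point with an arrow at its bound of 8.54-fold and without an error, and Cd247 and Prkcq were above background on 1 and 3 of the 25 colon arrays. The 5 genes of the T cell scheme lie at 4.12 to 6.67 and their 5 myeloid counterparts below 0.

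How far the Fc receptors differed depended on the colon cell. Fcgr1, not above background in T cells, read 9.31 to 9.93 on monocyte and macrophage arrays and 4.51 to 6.14 on cDC1 arrays, and was at least 11.7-fold lower in T cells than the colon mean. Fcgr4 was 4.93, 5.19 and 0.90 below monocytes, macrophages and cDC1s. Clec7a, the beta-glucan receptor, was lower by 6.79, 6.80 and 5.52, with 5.24 and 5.23 on the T cell arrays against 10.15 to 12.22. Over the list, 20 genes were called lower than in monocytes, 21 than in macrophages and 15 than in cDC1s.

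T cell transcription factors were mixed. Of 27 listed, 26 were tested, 3 of them through the T cell arrays alone and 2 through the colon arrays alone, and 16 were called higher and 1 lower, with a median difference of 1.86. Bcl11b, needed for T cell commitment, read 11.86 and 11.98 in T cells, 4.87 to 6.18 on monocyte, 4.63 to 5.74 on macrophage and 4.83 to 7.34 on cDC1 arrays (difference 6.24, SE 0.43). Tcf7 and Gata3, which act in the thymus and again in helper cells, were higher by 3.81 and 4.95. Ets1, a lymphocyte ETS factor, read 12.61 and 12.52 against 6.18 to 8.65. All 4 lay above every colon array. Lef1 was above background on no colon array and was at least 3.23-fold higher in T cells by 1 of its 2 probes.

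Factors that act in type 1 and in type 2 helper cells were both called higher. Gata3, the type 2 factor, read 9.97 and 9.19 against 4.24 to 5.97. Tbx21 (T-bet), the type 1 factor, read 9.27 and 9.56 against 4.25 to 5.19 on monocyte and macrophage arrays and 5.94 to 6.70 on cDC1 arrays, a difference of 4.18 (SE 0.22, limma adjusted p = 2.90e-14). Eomes, its relative, read 7.21 and 8.00 against 4.22 to 5.03, and Stat4, which carries the IL-12 signal, 10.03 and 10.65 against 7.20 to 8.90. Rora was higher by 4.14.

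Foxp3, the factor of regulatory T cells, could not be read clearly. Its brightest probe read 8.53 and 8.03 in T cells and 8.70 to 9.87 in colon cells, while another read 7.33 and 5.56 against 4.45 to 6.48. None of its 4 probes was called, and they disagreed in direction. Bcl6, the factor of follicular helper cells, was lower in T cells, at 7.73 and 7.92 against 9.01 to 10.83 (difference -2.11, SE 0.14). Klf2, which keeps T cells in circulation, was higher by 1.27 and Ikzf1 by 1.56, but both calls, and that of Id2, were lost under median scaling. Id3 was 1.92 below monocytes and 1.21 below macrophages and 0.17 from cDC1s.

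Several products of type 1 and cytotoxic cells were called higher. Of 29 listed effector genes, 28 were on the array and 22 were tested, 3 of them through the T cell arrays alone and 1 through the colon arrays alone. Of these, 13 were called higher and 2 lower, with a median of 2.37. Ifng read 10.01 and 10.75 in T cells, 4.22, 4.55 and 5.18 on monocyte arrays, 4.44, 4.84 and 5.71 on macrophage arrays and 5.37 to 7.01 on cDC1 arrays, a difference of 5.12 (SE 0.31, limma adjusted p = 5.16e-13). Il18r1, the receptor through which IL-18 raises interferon-gamma, read 12.04 and 11.44 against 4.25 to 5.17. It was above background on 8 of the 25 colon arrays (3 monocyte, 5 macrophage and none of the cDC1 arrays), so the fitted difference of 7.23 rests on colon values at or near background, and 1 of its 3 probes was not called. Its partner Il18rap read 7.83 and 7.45 against 4.16 to 5.41.

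Ltb, a lymphotoxin chain that organises lymphoid tissue, was higher by 6.39, Il27ra by 5.41, Gzmk, a granzyme, by 5.60 and Nkg7, a granule protein, by 5.95. Ccl5 was bright in all cells and still higher in T cells, at 13.13 and 13.18 against 10.16 to 12.20 (difference 1.76, SE 0.38). Prf1, the pore protein perforin, read 9.06 and 10.89 against 6.09 to 8.32. Il2 read 7.67 and 7.39 and was above background on 1 colon array, while Il21 was higher by 1.80.

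Il4 and Il13, cytokines of type 2 cells, and Il17a, of type 17 cells, were not called against the colon mean. Il4 read 5.95 and 5.99 against 4.34 to 5.91 (difference 0.96, SE 0.22, limma adjusted p = 0.000594) and was called against monocytes and cDC1s. Il13 read 4.53 and 4.96 against 4.36 to 5.17, and Il17a 4.98 and 4.64 against 4.32 to 4.75. Il17f, Il22, Il5, Il3, Il23r and Gzmb were on the array but failed the filter on dim probes. Il10 was lower in T cells, at 5.10 and 6.36 against 9.70 to 10.37 in monocytes and 11.21 to 12.03 in macrophages, and 0.81 below cDC1s. Tnf was lower by 1.21 (SE 0.34), by 2.11 and 2.36 against monocytes and macrophages, with T cells 0.85 above cDC1s, and its call against the colon mean was lost under cyclic loess normalisation and without T cell array 34.

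Of 22 listed costimulatory and checkpoint genes of T cells, 19 were tested, 3 of them through the T cell arrays alone, and 12 were called higher and 1 lower, with a median of 2.05. Icos, an activating receptor of effector cells, read 10.46 and 9.32 against 4.43 to 5.88 (difference 4.79, SE 0.34). Tnfrsf18 (GITR) was higher by 4.22, Slamf1 by 4.25, Cd160 by 4.08 and Tnfrsf4 (OX40) by 3.60. Il2ra, the high-affinity IL-2 receptor chain, read 6.57 and 5.20 and was not called, since the Mbd2-/- array lay within 1 of the colon mean.

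Of the checkpoint receptors, Pdcd1, Ctla4, Lag3 and Btla were not called against the colon mean. Pdcd1 (PD-1) read 4.78 and 4.96 against 4.20 to 4.77, a difference of 0.54. Ctla4 read 7.89 and 7.92, within the 6.83 to 7.97 of monocytes and macrophages and 1.61 below cDC1s. Lag3 was 1.93 below macrophages and 0.18 below cDC1s, and Btla was 2.26 above monocytes and 2.26 below cDC1s. Havcr2 (TIM-3), which myeloid cells also carry, was lower in T cells by 4.04 (SE 0.16), with 5.71 and 6.48 against 9.08 to 11.64.

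Trafficking and survival genes split. Of 23 listed, 20 were tested, 1 of them through the T cell arrays alone, with a median of 0.51. In T cells 9 were called higher (45%) and 4 lower (20%), against 11.5% and 15.7% of all genes tested. Cxcr6, a receptor of tissue-homing effector cells, read 10.54 and 9.17 against 4.25 to 5.29 (difference 5.20, SE 0.21, limma adjusted p = 1.95e-16). Cxcr3, which follows interferon-induced chemokines, read 11.36 and 10.99 and was 5.76 above monocytes, 4.77 above macrophages and 2.18 above cDC1s. Cd27 was higher by 4.96 and Il7r, the IL-7 receptor of long-lived T cells, by 3.12. Ccr6 read 9.35 on the WT and 7.42 on the Mbd2-/- array against 5.03 to 7.71, so that it overlapped the macrophages, and its call was lost without array 34.

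Ccr7, a receptor that leads naive T cells into lymphoid tissue, read 6.60 and 7.35 in T cells, below all colon arrays (8.02 to 11.11), and was lower by 2.05. Cxcr4 had the largest fall of the list, with 6.38 and 5.43 against 8.58 to 11.12 (difference -4.17, SE 0.21). Among integrins, Itgb7 was 3.86 above macrophages and 0.81 above cDC1s, and Itgae, the CD103 chain used to sort the cDC1s, was 2.82 above monocytes and 2.73 below cDC1s.

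Gimap GTPases, which support lymphocyte survival, were higher as a family. Of 8 listed, 7 were tested, 1 of them through the T cell arrays alone, and 6 called higher, with a median of 4.76. Gimap7 read 10.71 and 11.04 against 4.68 to 7.03 and Gimap9 9.62 and 9.59 against 4.29 to 5.61. For all 7 tested members both T cell arrays lay above every colon array. Gimap4, the member not called, read 5.08 and 5.36 against 4.23 to 5.06.

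Myeloid lineage factors and growth factor receptors were lower. Of 22 listed, 21 were tested, 7 of them through the colon arrays alone, and 18 called lower, with a median of -3.44. Spi1 (PU.1), the master factor of myeloid cells, read 4.25 and 4.76 in T cells, above background on 1 of the 2, and 8.04 to 10.28 in colon cells (difference -4.80, SE 0.26, limma adjusted p = 5.92e-14). Klf4 was lower by 5.90 and Irf5 by 4.38, both below every colon array. Cd14, the endotoxin coreceptor, read 5.33 and 4.85 against 9.94 to 13.79, and Csf2ra, a GM-CSF receptor chain, 5.03 and 4.78 against 9.04 to 10.59.

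For 2 growth factor receptors the difference lay with monocytes and macrophages. Csf1r was 4.78 below monocytes and 5.27 below macrophages and 0.28 below cDC1s, and Csf3r 4.28 and 3.51 below them and 0.31 above cDC1s. Irf8, the factor of cDC1s, showed the opposite order, at 3.14, 3.61 and 5.10 below. Irf4, which both lineages use, was not called, at -0.21 (SE 0.19, limma adjusted p = 0.357). Cebpa and Itgam were not called either, and both were dim on the colon arrays, at no more than 4.87 and 7.46.

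Innate sensing genes were lower. Of 23 Toll-like receptor and inflammasome genes, all tested, 17 were called lower and none higher, with a median of -2.66. For 11 of them the filter was passed by the colon arrays alone. Il1b, the main inflammasome cytokine, read 5.88 and 6.03 in T cells, 13.22, 13.48 and 13.68 on monocyte arrays, 13.56, 13.63 and 13.74 on macrophage arrays and 12.93 to 13.49 on cDC1 arrays. The difference was -7.51 (SE 0.10, limma adjusted p = 1.40e-25), which is 182-fold. Cxcl2, a neutrophil chemokine, was not above background on either T cell array and was at least 118-fold lower, and Il1rn, the IL-1 receptor antagonist, at least 38.6-fold.

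Tlr2 was lower by 4.96 and Tlr13 by 4.31, below every colon array. Tlr7 was 4.51 and 4.96 below monocytes and macrophages and 0.33 below cDC1s, while Tlr3, not above background in T cells, read 6.30 to 7.07 on cDC1 arrays and 4.31 to 5.29 on the others. Tlr1 was 1.57 above cDC1s and 2.10 below macrophages. Myd88, the shared adaptor, read 11.39 and 10.97 against 11.29 to 12.34, and Casp1 11.64 and 11.29 against 9.72 to 11.62, and neither was called against the colon mean. Il18, the ligand of Il18r1, was itself lower by 3.44 (SE 0.14).

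Of 13 class II and costimulatory ligand genes, all tested, 12 were called lower in T cells, with a median of -4.03. H2-Ab1, a class II chain, read 9.54 and 10.52 against 13.86 to 14.12, and Cd74, the invariant chain, 9.56 and 11.10 against 13.59 to 13.95. Ciita, the transactivator of class II genes, read 4.92 and 5.04 against 7.83 to 10.82 (difference -4.48, SE 0.28). Cd86 and Cd40 were lower by 4.79 and 6.07. H2-Oa, which read 7.62 and 9.92 against 7.79 to 8.90 on monocyte arrays, was not called against the colon mean.

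Of 11 class I genes, all tested, 2 were called higher (18.2%, against 11.5% of all genes tested) and none lower, with a median of 0.50. B2m, the shared light chain, read 13.66 and 13.73 against 13.22 to 13.75 (difference 0.20, SE 0.10, limma adjusted p = 0.0967). Quantile normalisation, which gives every array the same set of values, left so bright a gene little room to differ. Over the alternatives its difference ran from 0.15 to 1.49. H2-K1 was higher by 1.18 (SE 0.17), a call lost under median scaling. Psmb8, an immunoproteasome subunit, read 12.47 and 12.45 against 8.72 to 11.45 in monocytes, 4.64 to 11.92 in macrophages and 12.07 to 12.43 in cDC1s. Its spread within macrophages left a difference of 1.96 with an SE of 0.82 (limma adjusted p = 0.0393), and the call was lost in 9 of the 42 alternatives, among them without either T cell array and under median scaling, where no class I gene was called. Under cyclic loess normalisation 5 of the 11 were called higher, so the count for this list depended on the normalisation.

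Lysosomal and phagocyte enzymes were lower for 15 of 23 genes, all tested, 3 of them through the colon arrays alone, with a median of -1.85. Lgmn, an endosomal protease, read 7.22 and 7.83 against 9.48 to 13.60 (difference -4.41, SE 0.20), and Hexa and Grn were lower by 3.67 and 3.48. Cyba, a chain of the phagocyte oxidase, read 12.64 and 13.10 against 12.02 to 13.42 and was not called. Ctsd was 1.69 above cDC1s and 0.33 below macrophages, and Hmox1 was 2.00 above cDC1s and 1.94 below macrophages. The probe that read Ctsd was dim, at 4.35 to 6.99 on the colon arrays, so its differences rest on low signal.

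Cell cycle genes were higher in T cells than in monocytes and macrophages and closer to cDC1s. Of 22 listed, 20 were tested and 15 called higher against the colon mean, with a median of 1.85. Against monocytes 16 were called, with a median of 2.83, against macrophages 15, with 1.97, and against cDC1s 2, Mki67 and Mcm3, with 0.78. In the same order 13.3%, 13.1% and 10.2% of all genes tested were called higher. The 2 of 20 against cDC1s were near the last of these shares. Top2a, which untangles DNA in dividing cells, read 9.53 and 9.45 in T cells, 5.05, 5.37 and 5.88 on monocyte arrays, 5.52, 6.65 and 7.54 on macrophage arrays and 8.18 to 9.33 on cDC1 arrays. It was 4.05 above monocytes (SE 0.25) and 0.78 above cDC1s.

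Mcm6, a replicative helicase subunit, was 3.52, 2.29 and 0.88 above monocytes, macrophages and cDC1s, Tyms, which makes thymidylate, 3.65, 3.24 and 1.05, and Birc5, of the chromosomal passenger complex, 3.83, 2.76 and 0.81. Cdk1 read 8.87 and 8.92 against 4.54 to 5.56 in monocytes and 8.05 to 8.48 in cDC1s. Aurka, Bub1b, Ccna2 and the inhibitor Cdkn1b were called against no colon cell type. Calls of Mki67, Mcm5, Ccnb1 and Pcna against the colon mean were lost under median scaling, which left 11 of the 15.

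**Figure D5:**
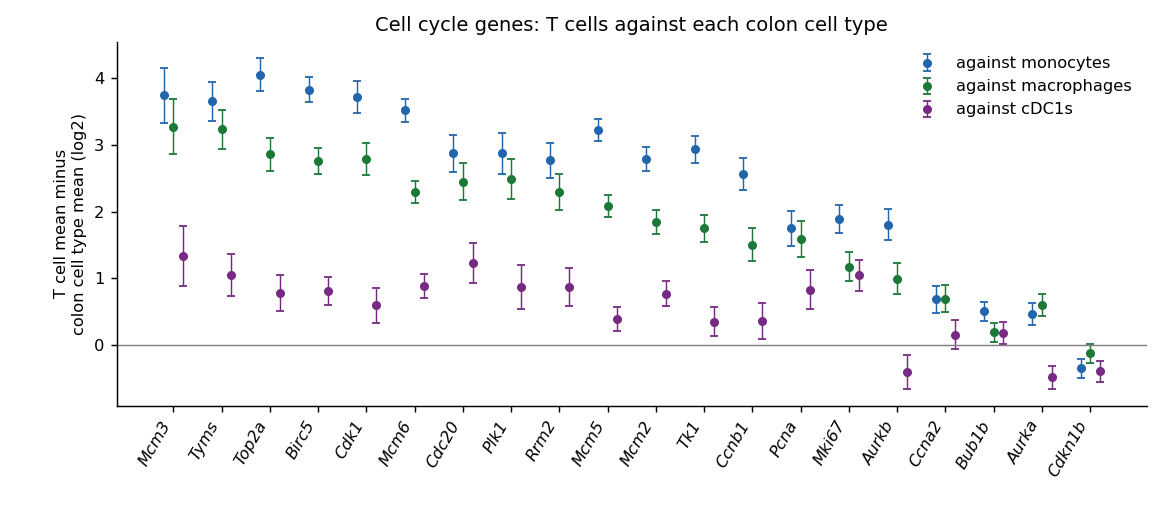
T cell mean minus the mean of each colon cell type (vertical axis, log2) for the 20 tested cell cycle genes (horizontal axis), with the standard error from limma. Top2a was 4.05 above monocytes, 2.86 above macrophages and 0.78 above cDC1s.

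Among DNA methylation readers and NuRD subunits, the families to which Mbd2 belongs, 22 genes were listed and 16 tested. Of these, 4 were called higher (25%, against 11.5% of all genes tested) and none lower, with a median of 0.73. Against cDC1s 2 of the 16 were called higher, near the 10.2% of all genes tested. Dnmt1, which copies methylation after replication, read 9.73 and 9.43 against 6.96 to 8.66 (difference 1.80, SE 0.17, limma adjusted p = 1.80e-09). Uhrf1, its recruiting factor, was 3.17 above monocytes, 1.88 above macrophages and 0.32 above cDC1s. Both calls were lost under median scaling. Mbd3, the NuRD subunit related to Mbd2, read 7.98 and 8.67 against 4.64 to 7.57 and was higher by 1.72 (SE 0.43), a call lost without background correction, with WT arrays alone and without T cell array 35.

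Rbbp7, a histone-binding subunit, read 9.44 and 9.90 against 4.22 to 4.52 on monocyte arrays, and reached 7.77 on macrophage array 20 and 9.27 on cDC1 array 23, both among the arrays that stood apart. Its difference was 4.50 (SE 0.63). Chd4, the NuRD remodeller, differed by 1.01 and Chd3 by 1.19, and neither was called. Mbd1 and Mbd4 differed by -0.57 and 0.31, and neither was called. Tet1, Tet2, Tet3, Hdac1 and Gatad2a were not analysed here.

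Cytosolic ribosomal proteins and elongation factors gave no independent check on scale. Quantile normalisation gives every array the same set of values, so the brightest genes among them had little room to differ. Of 62 listed, 48 were tested, and 1 was called higher, with a median of 0.14. Rplp1 read 13.95 and 13.95 against 13.72 to 14.12. Under cyclic loess normalisation 32 of the 48 were called higher, so that no direction can be given for this family. Eef2, the translocation factor, was the 1 called, at 11.92 and 12.23 in T cells against 4.60 to 5.83 in monocytes, 4.35 to 7.54 in macrophages and 6.17 to 11.59 in cDC1s, with all 3 probes called. Its highest macrophage and cDC1 values were on arrays 20 and 23.

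Other lineages were read through the same comparison. Camp and Ngp, neutrophil granule genes, read 10.97 and 10.01 on the WT and 8.46 and 7.53 on the Mbd2-/- T cell array, against 4.18 to 6.17 on all colon arrays, and 5 of 8 neutrophil markers were called higher, 3 of the 8 having passed the filter through the T cell arrays alone. S100a8 and S100a9 were called against the colon mean but not against monocytes, and the calls were lost without array 34, the WT T cell array, and under median scaling. Hba-a1 and Hbb-b1, called higher by 3.77 and 3.65, lost their calls without array 35, the Mbd2-/- T cell array. All 8 tested epithelial and stromal markers, 6 of which passed the filter through the colon arrays alone, were called lower, and Muc2, the goblet cell mucin, was at least 119-fold lower. The lymphoid markers other than CD4 were mixed: Cd8b1 read 6.59 and 7.82 in T cells and 8.01 to 9.78 in cDC1s, and Klrd1 was 2.26 above monocytes and 0.08 below cDC1s.

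The 20 called genes with the largest differences above all colon arrays held 8 of the T cell receptor and its signalling. These were Cd3d, Cd3e, Cd2, Cd6, Lat and probes of 3 receptor beta variable segments, of which Tcrb-V8.2 read 13.25 and 13.41 against 4.26 to 9.35 (difference 7.01, SE 0.57). Il18r1, Ltb, Nkg7 and Bcl11b were described above. Tnfrsf25 (DR3), a TNF receptor of activated lymphocytes, read 10.85 and 10.55 against 4.23 to 5.07, a difference of 6.25 (SE 0.16). Ptprcap, a partner of CD45, was higher by 5.96, and Actn2, an actinin best known from muscle, read 12.04 and 11.12 against 4.45 to 8.12. The others were Eef2 and 4 probes with array names only.

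The 20 largest differences below all colon arrays held immunoglobulin, epithelial and myeloid genes. The immunoglobulin probe Igh-VJ558 read 4.49 and 4.32 against 13.24 to 13.84 and was at least 556-fold lower in T cells, and Igl-V1 at least 197-fold. Epithelial genes followed, with Dmbt1 and Reg3b at least 158-fold and 159-fold lower beside Muc2 and Krt8. Genes that activated myeloid cells express were Il1b, Cd14, Cd83, Cxcl16 (at least 163-fold), Cxcl1 and Cxcl2, Saa3 and Tnfaip2. Fosb and Atf3, stress-induced transcription factors, and Hspa1a, a heat shock chaperone, read 4.66 or less in T cells and at least 9.35 on every colon array. The summed epithelial and stromal markers were also lower in T cells, and their part in these differences was not tested. The B and plasma cell markers did not follow the immunoglobulin probes on cDC1 arrays, where they summed to 196 to 238, near the 160 and 173 of the T cell arrays, while Igh-VJ558 read 13.24 to 13.74.

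The 2 T cell arrays were also set side by side, with no test. They differed by at least 1 for 519 of the 14299 genes, 217 higher on the WT and 302 on the Mbd2-/- array, with a median absolute difference of 0.24, and for 175 of the 3895 called genes. All 8 neutrophil markers were higher by at least 1 on the WT array (median 2.42), with Mpo at 9.30 and 4.93, and 3 of 6 erythroid and platelet markers were higher on the Mbd2-/- array. Of 22 effector genes, 5 were higher by at least 1 on the Mbd2-/- array, among them Prf1 and Gzmk (9.55 and 10.95), and of 13 class II genes 4. With 1 array per genotype, these differences cannot be told apart from differences between single samples.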

How the data were processed

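The authors deposited probe intensities of Illumina MouseWG-6 arrays, exported from GenomeStudio without background subtraction or normalisation, with a detection p-value for each probe against the negative controls of its array. The submitters' processing notes name lumi and limma without a role. The table held 45281 probes, and 3 signal columns that belong to no sample used here were left out. Probes were named by accession (27650), by current symbol (4822) or by the array's name alone (12809).

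Intensities were background-corrected by normexp from the negative controls (offset 16), quantile normalised over the 27 arrays and taken to log2 with limma 3.58.1 in R 4.3.3. A probe was tested where its detection p-value was under 0.05 on both T cell arrays or on at least 5 monocyte, 5 macrophage or 3 cDC1 arrays, which left 20044 probes of 14299 genes. A gene was read by its brightest tested probe. The fit held 7 groups (T cells, and 3 colon cell types by genotype) with 20 residual degrees of freedom, and p-values were adjusted over all tested probes by the Benjamini-Hochberg method. Between 16024 and 18608 probes were detected on a colon array and 17898 and 17839 on the WT and Mbd2-/- T cell arrays; the number of arrays limits the precision.

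A fold is given as "at least" where no array of the dimmer side was above background, against the lowest signal above background. Marker sums add linear normalised intensities. The genes named were the members of fixed lists and the 20 largest called differences in each direction outside the range of the colon arrays. Members and lists were chosen with earlier results of these data known. Tested on simulated data at this comparison (20044 probes), 20% of changes of 1 on the log2 scale were called, 90% of 1.5, 94% of 2 and 100% of 3. The simulated noise was normal, independent and of equal spread on all arrays for a given probe. No genotype difference between the T cell arrays and no arrays standing apart were simulated, so these rates may not hold for the real arrays. No 2 arrays were identical. A few list members enter the counts and medians but are not reported here by name.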

Additional observations from a re-analysis of the deposited data

Results flagged for a closer look

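In each group of 5 arrays, the lowest and highest value of 22 measures was set against the others by Dixon's criterion. Of 88 checks 7 passed it, and chance passes about 1 in 20. Among Mbd2-/- monocytes, array 6 read 4.225 for Cd4, below the others at 4.400 to 4.445, and array 10 read 5.435 for Lat, above 4.879 to 4.984. Array 8 read 4.956 for Il18r1, above 4.260 to 4.446. The B cell and plasma cell markers summed to 489.2 on array 6, above 258.7 to 305.4. Among Mbd2-/- macrophages, array 20 read 13.55 for Fcer1g, below 13.78 to 13.86, and 7.54 for Eef2, above 4.352 to 4.565. Among WT macrophages, array 12 read 6.537 for Syk, below 7.631 to 7.844. Each of these values left the T cell arrays on the same side of the group.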

How the results depend on the processing

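Of 254 named genes called, 208 were called under every alternative. Without background correction 2087 genes were called (811 higher, 1276 lower), 2380 against monocytes (954, 1426), 2406 against macrophages (963, 1443) and 1787 against cDC1s (690, 1097), and the T cell arrays differed by at least 1 for 161 genes. With an offset of 50, 1068 genes were called higher, 1236 than in monocytes and 916 than in cDC1s, and the T cell arrays differed for 241. Under median scaling 1225 genes were called higher than in macrophages, 1690 lay above all colon arrays and the T cell arrays differed for 1812, and 35.7% of calls were higher, against 42.3%. With no minimum difference 9220 genes were called (4918 higher, 4302 lower), 9288 against monocytes (5051, 4237), 9460 against macrophages (5018, 4442) and 7943 against cDC1s (4287, 3656), 53.3% of the first being higher. With WT arrays alone 4891 genes lay above and 3970 below the colon arrays, and with Mbd2-/- arrays alone 4655 above. The cause of these shifts was not tested. Rpl10a, Rpl38 and Rps4x, each within 0.02 of the colon mean and not called, reached 1.12, 1.33 and 1.19 under cyclic loess. With each array left out in turn, 3865 to 4658 genes were called (1632 to 2141 higher, 2230 to 2517 lower), 4246 to 5036 against monocytes (1872 to 2414, 2368 to 2641), 4227 to 5134 against macrophages (1840 to 2417, 2387 to 2717) and 3388 to 4146 against cDC1s (1454 to 1965, 1933 to 2181). Then 2706 to 3942 genes lay above and 2605 to 3326 below the colon arrays, and the T cell arrays differed for 509 to 532. With 1 T cell array left out, the spread came from the colon arrays alone, and the other T cell array was assumed to vary like them. Direct reading of the negative controls and the omission of arrays 12, 20 and 23 together were chosen after seeing the data. No paired analysis was possible because no array number occurs in more than 1 group.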

Other observations

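Genes of glycolysis and lipid handling were called in both directions. Of 23 listed, 20 were tested, with a median difference of -0.16, against 0.05 over all genes tested. In T cells 3 were called higher (Hk1, Pfkp and Slc2a3), or 15%, near the 11.5% of all genes tested. Another 7 were called lower (Hk3, Slc2a1, Slc2a6, Fabp5, Apoe, Lpl and Plin2), or 35%, against 15.7%. Pfkp was among the genes at least 1 higher on both macrophage array 20 and cDC1 array 23 than on the others of their types.

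T cell genes differed between the cDC1 arrays. Cd3e read 9.12 on array 23 (WT) and 8.95 on array 28 (Mbd2-/-), against 6.49, 7.79 and 6.11 on arrays 26, 27 and 30.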
